A study of Mus musculus with 6 samples.

Results

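The 50 genes described here encode secreted cytokines and growth factors, chemokines, their receptors, the prostaglandin-forming enzymes, the NF-κB transcription factors with their inhibitors, and a few inflammatory effectors and adhesion molecules. They were chosen by name, as a list of known inflammatory genes, from the 25746 genes of an RNA-seq table. Earlier results of these data were known when the list was made. Of the 50 genes, 48 had enough counts to be tested among 12192 tested genes. The study deleted Acta2, the gene of smooth muscle α-actin, in mouse cardiac fibroblasts and measured gene expression by RNA-seq in 2 KO and 2 WT libraries. Open chromatin was measured by ATAC-seq in 1 KO and 1 WT library.

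KO libraries carry the genotype label Acta2 KO and WT libraries the label WT, and both are labelled as cardiac fibroblasts from heart. The labels describe fibroblasts of Acta2fl/fl and of WT mice that all received Adeno-Cre, an adenovirus carrying Cre recombinase, and then TGFβ for 2 days, so that the virus and the cytokine are shared by both genotypes. The same labels also describe sorted eGFP+ cells traced by Tcf21, a fibroblast lineage gene, from hearts with a coronary ligation at 9 weeks of age. Those mice carried a tamoxifen-inducible MerCreMer and received tamoxifen at 75 mg/kg/day for 5 days from 6 weeks of age, with another course around the infarct. Which of these sources each library came from is not stated. Since no label ties a replicate to its own culture or animal, p-values measure only the spread between these libraries.

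Library totals were 11370115 and 10864365 estimated counts for KO, against 8429166 and 9096811 for WT. Acta2 itself, on chr19:34241090-34255590 of mm10, had 255.96 and 265 counts per 1000000 (CPM, at library sizes scaled by TMM) in KO libraries, against 2186 and 2200 CPM in WT libraries, a log2 fold change of -3.07 (SE 0.03). All 12 fibroblast markers checked passed the filter on low counts, and they summed to 4293 and 4277 CPM in KO, against 5683 and 5558 CPM in WT, with 2 called higher and 9 lower. The 16 markers of macrophages and other leukocytes summed to 191 and 196 CPM in KO, against 115 and 107 CPM in WT. Of these, 7 of 12 tested rose and none fell. Among the 12, C1qa, which rose, and Itgam, without a call, passed that filter through their KO libraries alone, which fixed their direction. Fcgr1 had 0 counts in every library. Ptprc, which encodes the pan-leukocyte antigen CD45, had 11 and 9 counts in KO, against 5 and 1 in WT. The 12 endothelial markers summed to 222 and 237 CPM in KO, against 177 and 176 CPM in WT. The 9 pericyte and smooth muscle markers summed to 84.8 and 88.8 CPM in KO, against 45.3 and 44.2 CPM in WT. Of the 7 tested among these 9, Mcam, Myh11 and Lmod1 were called higher, and Rgs5 and Cspg4 lower. Lymphocyte markers stayed at or below 1.28 CPM in sum in every library, and the neutrophil genes S100a9, Csf3r and Retnlg had 0 counts throughout. The 6 neutrophil markers summed to 5.70 and 6.11 CPM in KO, against 18.1 and 22.7 CPM in WT, nearly all of it Mmp8. In bulk RNA, fewer cells of a type and less RNA per cell cannot be told apart, and the part of these other cell types in the results that follow was not tested beyond the values given.

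NF-κB is a family of dimeric transcription factors, built from RelA, RelB, c-Rel and the processed products of Nfkb1 and Nfkb2, that inhibitor proteins of the IκB family hold in the cytoplasm. Receptors for TNF, interleukins and bacterial products activate a kinase that triggers IκB destruction, and the freed dimers bind κB sites in the promoters of cytokines, chemokines, Ptgs2, adhesion molecules and of their own inhibitors. Fibroblasts of the injured heart are known as a source of such signals, which recruit neutrophils and monocytes.

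Of the 48 tested genes, 31 passed the test (adjusted p under 0.05 by edgeR's quasi-likelihood test with Benjamini-Hochberg adjustment over all tested genes), against 35.7% of all tested genes. Because earlier results were known when the genes were listed, this count is given as a description with no test of the list. The direction was split, with 17 genes higher in KO, against a background of 18.3%, and 14 lower, against 17.4%. The median log2 fold change of the 48 genes was -0.03, beside 0.00 for all tested genes, and the median size of the change was 0.34 on the log2 scale, beside 0.21 for all tested genes. A total of 4 genes changed by at least 1 on the log2 scale, namely Csf3, Tnf, Cxcl3 and Ptgs2, and each of them was higher in KO. Such changes were found in 5.82% of all tested genes. With an assumed spread between replicates of 0.2 (BCV) in place of the fitted 0.0311, these 4 were the only calls among the 48 genes, against 3.26% of all tested genes. DESeq2's Wald test did not call Tnf, Cxcl2, Cxcl10, Ccl5, Ccl7, Nfkb1, Nfkb2, Nfkbie, Tnfaip3 and Saa3, with adjusted p from 0.0572 for Cxcl2 to 0.249 for Tnfaip3. Without the filter on low counts, Cxcl10 and Ccl7 were not called (adjusted p = 0.0506 and 0.0510). The genotypes did not overlap in 39 of the 48 genes, against a background of 67.1%, and the median level of the 48 genes was 21.5 CPM, close to the 20.9 CPM of all tested genes. Csf3, Tnf and Cxcl3 passed the filter on low counts through their KO libraries alone, so that a tested gene of this kind had to be higher in KO.

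**Figure D1:**
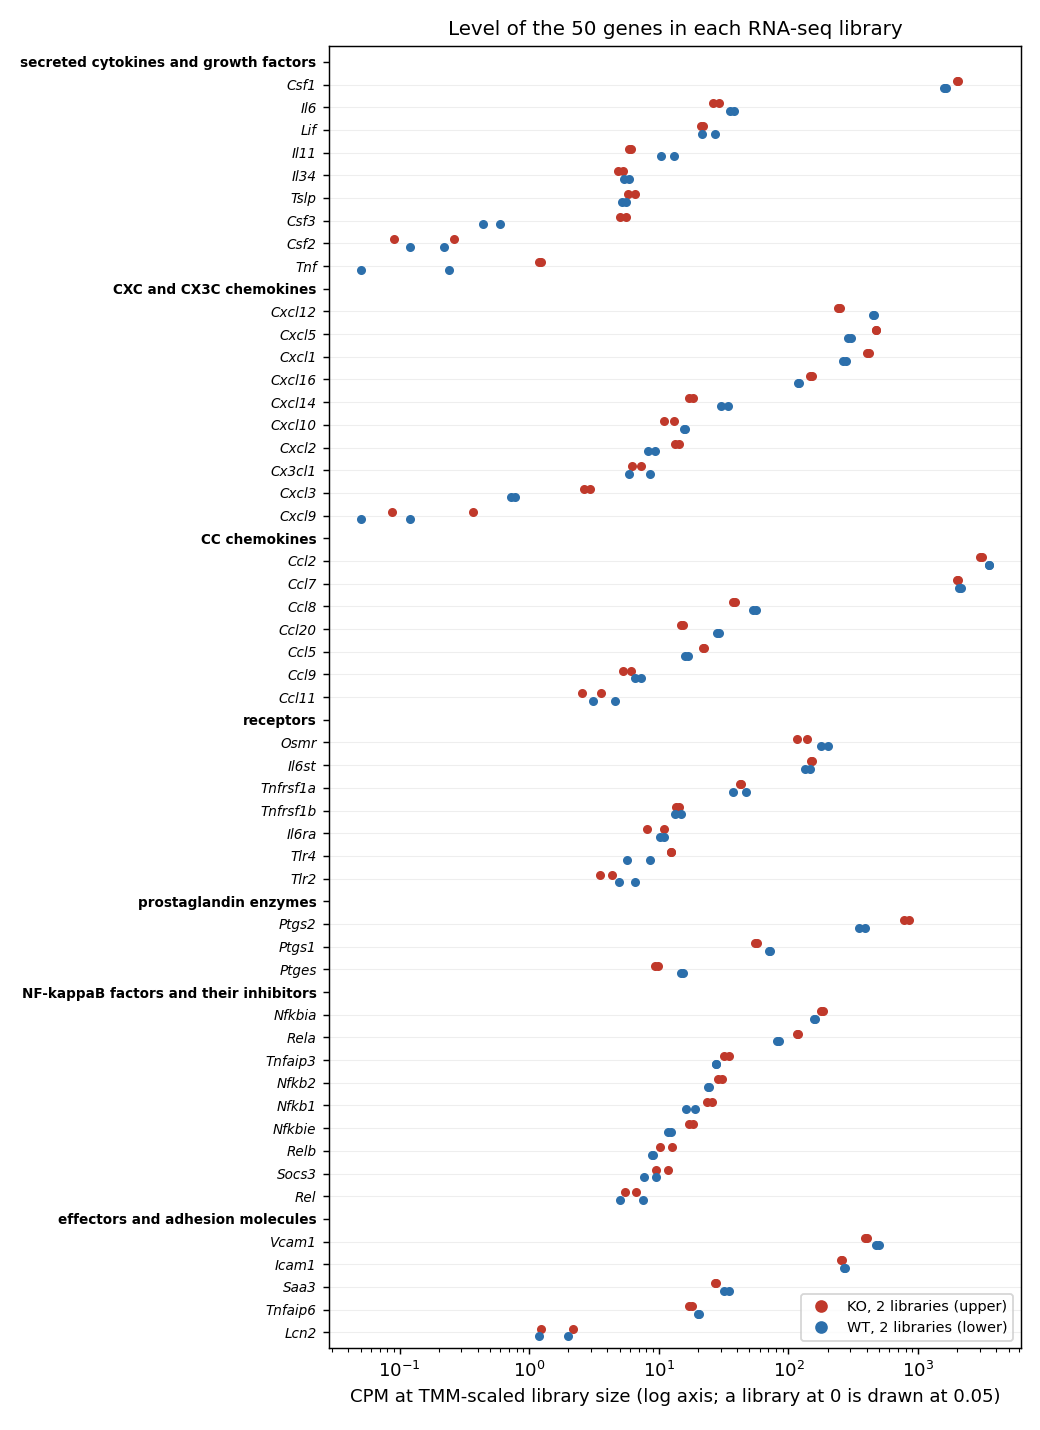
CPM of the 50 genes in each RNA-seq library, on a log axis and ordered by role, with 2 KO libraries (red, upper dot of each pair) and 2 WT libraries (blue, lower). Levels run from Csf2 and Cxcl9, below 0.5 CPM in every library, to Ccl2, the highest in each library, and the genotypes separate most widely for Csf3, Tnf and Cxcl3.

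By role, the calls are read beside the 18.3% of all tested genes that were higher in KO and the 17.4% that were lower. The NF-κB factors and their inhibitors had 6 genes higher and none lower of 9 tested. Of the 6, DESeq2's Wald test did not call Nfkb1, Nfkb2, Nfkbie and Tnfaip3. An assumed BCV of 0.1 left Nfkb1, Nfkb2, Nfkbia and Tnfaip3 without a call. This class also counts Socs3, which inhibits signalling through the cytokine receptor subunit gp130 and had no call. The CXC and CX3C chemokines had 5 higher and 3 lower of 9. The CC chemokines had 1 higher and 4 lower of 7, the receptors 1 and 1 of 7, the prostaglandin enzymes 1 and 2 of 3, and the effectors and adhesion molecules 0 and 2 of 5. The cytokines and growth factors had 3 higher and 2 lower of 8. Whether these splits differ from each other was not tested.

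Promoter sequences are shown first for the genes whose κB matches are referred to below, because NF-κB acts through such sites. The sequences are the 250 bases before the RefSeq gene start on GRCm38.p6, written 5′ to 3′ on the strand of the gene, with capitals marking every match to the κB consensus, a 10-base motif searched on both strands. The first set holds 3 neighbouring chemokine genes and Nfkbia, all higher in KO, which share the stretch GGGAATTTCC on one strand or the other.
Cxcl1 (chr5:90890995-90891244, plus strand): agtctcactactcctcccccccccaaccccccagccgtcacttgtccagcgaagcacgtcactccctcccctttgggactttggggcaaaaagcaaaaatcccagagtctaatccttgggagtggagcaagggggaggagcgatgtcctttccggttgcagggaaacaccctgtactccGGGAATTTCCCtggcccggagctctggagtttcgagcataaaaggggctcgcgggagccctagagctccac
Cxcl2 (chr5:90903649-90903898, plus strand): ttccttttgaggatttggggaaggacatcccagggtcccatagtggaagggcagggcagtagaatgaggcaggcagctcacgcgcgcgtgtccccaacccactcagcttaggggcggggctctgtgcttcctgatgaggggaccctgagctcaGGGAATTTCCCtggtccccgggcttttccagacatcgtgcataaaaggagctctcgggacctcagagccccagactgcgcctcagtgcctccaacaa
Cxcl3 (chr5:90785851-90786100, plus strand): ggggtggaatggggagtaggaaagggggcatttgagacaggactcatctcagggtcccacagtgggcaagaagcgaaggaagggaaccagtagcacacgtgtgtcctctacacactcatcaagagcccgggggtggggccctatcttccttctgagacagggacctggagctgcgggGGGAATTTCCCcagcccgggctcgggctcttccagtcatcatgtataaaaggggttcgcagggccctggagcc
Nfkbia (chr12:55492648-55492897, minus strand): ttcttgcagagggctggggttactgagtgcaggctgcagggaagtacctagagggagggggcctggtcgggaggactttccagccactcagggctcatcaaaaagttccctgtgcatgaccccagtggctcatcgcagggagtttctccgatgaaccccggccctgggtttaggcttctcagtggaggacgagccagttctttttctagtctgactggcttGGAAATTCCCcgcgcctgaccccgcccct

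In the chemokine genes Cxcl1, Cxcl2 and Cxcl3 the first match began at position -71, -97 and -73, with the first base of the RefSeq gene as 0, and each stretch of 11 bases holds overlapping matches on both strands. In Nfkbia it lies on the strand opposite to the gene, from position -29 to -20. The stretch GGGAATTTCC, a search added after the first matches were seen, was found in 29 of 32851 RefSeq promoter windows of 300 bases (250 before to 50 after the start), or 0.0883%, and in 4 of the 41 windows of the genes described here. The second set shows that a κB match was not limited to genes that were higher in KO: Csf1 was higher, and Il6, Cxcl10 and Ccl20 were lower.
Csf1 (chr3:107760470-107760719, minus strand): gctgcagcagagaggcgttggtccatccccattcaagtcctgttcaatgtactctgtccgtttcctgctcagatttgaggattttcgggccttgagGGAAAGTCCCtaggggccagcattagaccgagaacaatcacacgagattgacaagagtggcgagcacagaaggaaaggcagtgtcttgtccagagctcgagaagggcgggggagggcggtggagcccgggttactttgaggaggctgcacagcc
Il6 (chr5:30012864-30013113, plus strand): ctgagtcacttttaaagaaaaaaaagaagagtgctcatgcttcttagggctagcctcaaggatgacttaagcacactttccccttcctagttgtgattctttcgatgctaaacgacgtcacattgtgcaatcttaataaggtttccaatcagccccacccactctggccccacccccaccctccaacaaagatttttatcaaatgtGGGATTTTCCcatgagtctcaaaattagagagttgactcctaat
Cxcl10 (chr5:92348890-92349139, minus strand): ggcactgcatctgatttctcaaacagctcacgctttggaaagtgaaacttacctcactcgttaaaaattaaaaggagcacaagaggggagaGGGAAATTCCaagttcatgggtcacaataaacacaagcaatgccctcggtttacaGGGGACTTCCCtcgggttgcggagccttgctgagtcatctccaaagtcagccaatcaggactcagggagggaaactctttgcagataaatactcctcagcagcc
Ccl20 (chr1:83116516-83116765, plus strand): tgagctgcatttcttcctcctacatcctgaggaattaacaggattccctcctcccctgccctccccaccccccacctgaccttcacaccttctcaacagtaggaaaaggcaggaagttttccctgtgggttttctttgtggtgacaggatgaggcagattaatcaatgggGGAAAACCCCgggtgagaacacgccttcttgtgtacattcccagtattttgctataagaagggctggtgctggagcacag

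A RefSeq promoter window was found for 37 of the 50 genes, and 15 of these 37 had at least 1 κB match. They were 8 of 11 genes higher in KO, 3 of 11 lower, 4 of 13 without a call and 0 of 2 not tested. Counted by window, a match was in 17 of 41 windows (41.5%), beside 2779 of all 32851 windows (8.46%). Since the 50 genes were listed as inflammatory genes, of which many are known NF-κB targets, these shares are given as a description with no test, and a match is not evidence of binding. Windows for Ccl2, Ccl5, Ccl7, Ccl11, Csf3, Cxcl5, Cxcl16, Il34, Nfkb1, Relb, Tlr4, Tslp and Vcam1 were not used here.

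Among the secreted cytokines and growth factors, Csf3, Tnf and Csf1 rose in KO and Il6 and Il11 fell. Csf3 encodes G-CSF, which drives the production and release of neutrophils, and lies on chr11:98701263-98703629. Csf3 had 57 and 61 counts (4.99 and 5.57 CPM) in KO libraries, against 5 and 4 counts (0.60 and 0.44 CPM) in WT libraries. The log2 fold change was 3.32 (SE 0.39, adjusted p = 1.29e-07), and the ratio of summed counts was 10.2 with an exact 95% interval of 5.19 to 22.8, which covers counting error only. Tnf encodes the cytokine TNF, an activator of NF-κB, and had 14 and 13 counts in KO, against 2 and 0 in WT. Its summed ratio was 10.5, with an interval of 2.64 to 91.0, and its log2 fold change was 3.25 (SE 0.83, adjusted p = 0.00293). Both genes sat near the floor in WT and were separated from KO by a wide gap, at levels that stayed low even in KO. Without WT replicate 2, the library with 0 Tnf counts, the log2 fold change of Tnf was 2.27 and its adjusted p 0.0881. Without WT replicate 1, which leaves WT at 0 counts, the fitted value was 6.67 (adjusted p = 0.00478), which depends on the prior count and is no measure of size. The macrophage and leukocyte marker sum was also higher in both KO libraries, and its part in the Tnf value was not tested.

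Csf1 encodes M-CSF, the growth factor of monocytes and macrophages, and was the most abundant of these cytokines per kilobase of exon, at 383 CPM per kb in KO and 305 CPM per kb in WT. Csf1 had 2010 and 2037 CPM in KO, against 1589.8 and 1630.0 CPM in WT (log2 fold change 0.33, SE 0.02, 95% interval 0.28 to 0.38). The change was small and the genotypes lay far apart relative to the spread of either (adjusted p = 1.30e-11).

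Il6 and Il11 belong to the family that signals through the shared receptor subunit gp130, and Il11 is known as a product of TGFβ-treated fibroblasts. Il11 had 6.13 and 5.84 CPM in KO, against 10.3 and 13.1 CPM in WT, and fell by 0.97 on the log2 scale (SE 0.18, adjusted p = 0.000112). Il6 had 29.3 and 26.2 CPM in KO, against 35.6 and 37.7 CPM in WT, and fell by 0.40 (SE 0.09, adjusted p = 0.00141). Both KO libraries were below both WT libraries for each gene. Lif, a further gp130 ligand, had 22.1 and 20.99 CPM in KO, against 27.2 and 21.5 CPM in WT, with overlapping genotypes and a log2 difference of -0.17 (95% interval -0.42 to 0.07). That interval moved with 1 library, since the Lif value was -0.34 without WT replicate 2 (adjusted p = 0.0484) and 0.00 without WT replicate 1. Tslp, an epithelial and stromal cytokine, and Il34, the other ligand of the M-CSF receptor, had log2 differences of 0.21 (interval -0.23 to 0.65) and -0.16 (interval -0.62 to 0.30). Csf2, the gene of GM-CSF, was too low to test, with 3 and 1 counts in KO, against 1 and 2 in WT.

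Among the CXC chemokines, Cxcl1, Cxcl2, Cxcl3, Cxcl5 and Cxcl16 rose in KO, and Cxcl12, Cxcl14 and Cxcl10 fell. Cxcl1, Cxcl2, Cxcl3 and Cxcl5 act on the neutrophil receptor Cxcr2 and lie in a row on chromosome 5. Cxcl5 had 474 and 477 CPM in KO, against 301 and 288 CPM in WT, and rose by 0.69 on the log2 scale (SE 0.04, adjusted p = 2.31e-14). Cxcl1 had 415 and 401 CPM in KO, against 279 and 265 CPM in WT, and rose by 0.58 (SE 0.04, adjusted p = 3.20e-12). These were the most abundant chemokines of the CXC class per kilobase, with 255 CPM per kb in KO and 158 CPM per kb in WT for Cxcl5.

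Cxcl2 and Cxcl3 changed in the same direction at lower levels. Cxcl2 had 14.4 and 13.3 CPM in KO, against 9.35 and 8.18 CPM in WT (log2 fold change 0.66, SE 0.16, adjusted p = 0.00165). Cxcl3 had 2.63 and 2.92 CPM in KO, against 0.72 and 0.77 CPM in WT (log2 fold change 1.87, SE 0.43, 95% interval 1.00 to 2.75). Its adjusted p was 0.00104. The KO libraries of both genes lay above every WT library. Of the 100-base windows of their exons, 3.05% for Cxcl2 and 1.88% for Cxcl3 also occur in the other gene, so a small part of their reads could be assigned to either. Of the 6 neutrophil markers, S100a9, Csf3r and Retnlg were at 0 in every library, and S100a8 and Ly6g were under 10 counts in every library. Mmp8, the only one tested, was lower in KO (log2 fold change -1.89, SE 0.17). The macrophage and leukocyte sum was higher in KO.

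The whole stretch of chromosome 5 from Cxcl5 to Cxcl2, chr5:90759360-90905938 or 147 kb, held 7 chemokine genes, and each of the 6 that could be tested was higher in KO. Among these 6, Cxcl3 and Ppbp passed the filter on low counts through their KO libraries alone, which fixed their direction. Between the genes already given lie Ppbp and Pf4, known from platelets and their precursors and also found in macrophages. Ppbp had 3.68 and 4.20 CPM in KO, against 0.96 and 0.88 CPM in WT, and rose by 2.08 on the log2 scale (SE 0.38, adjusted p = 8.10e-05). Pf4 had 8.94 and 9.77 CPM in KO, against 3.96 and 3.87 CPM in WT, and rose by 1.25 (SE 0.21, adjusted p = 2.26e-05). Cxcl15, also in this stretch, had 0 counts in every library. The grouping by position was made after the values were seen, genes in a row are not independent, and no test of the stretch was run.

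**Figure D2:**
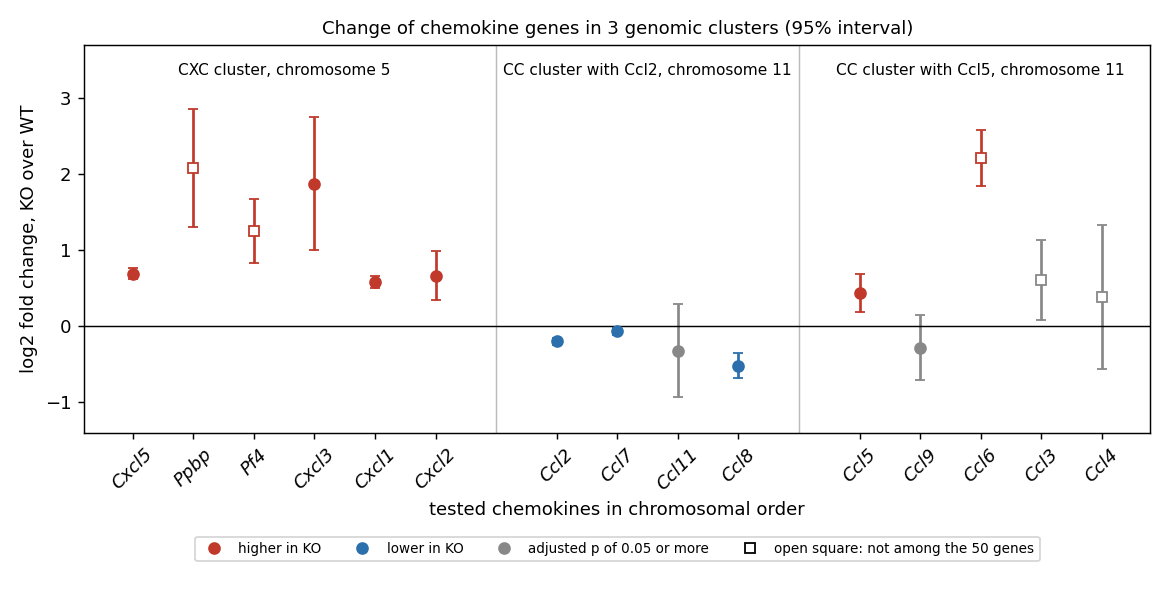
Log2 fold change of KO over WT with its 95% interval for the tested chemokines of the 3 genomic clusters with at least 4 of them, in chromosomal order. Filled circles are among the 50 genes and open squares are not, red is higher in KO, blue lower and grey without a call. All 6 genes of the chromosome 5 cluster lie above 0, of which Cxcl3 and Ppbp could be tested through their KO libraries alone, and the 4 genes of the Ccl2 cluster lie below it, of which Ccl11 had no call.

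Cxcl12, the ligand of Cxcr4 that holds stem cells and lymphocytes in stromal niches, had the smallest p of the chemokines that fell. Cxcl12 had 241 and 248 CPM in KO, against 448 and 456 CPM in WT (log2 fold change -0.89, SE 0.04, adjusted p = 1.20e-16). Cxcl14, a chemokine of fibroblasts and epithelia, had 16.9998 and 18.4 CPM in KO, against 34.3 and 30.0 CPM in WT (log2 fold change -0.86, SE 0.11, adjusted p = 7.22e-07). As ratios from the fitted log2 fold changes, KO was at 0.541 of WT for Cxcl12 and at 0.552 for Cxcl14. The order of Cxcl16 and Cxcl12 per kilobase differed between genotypes. Cxcl16 was above Cxcl12 in KO, at 49.0 and 29.9 CPM per kb, and below it in WT, at 39.5 and 55.3 CPM per kb. Cxcl16, a membrane-bound chemokine and scavenger receptor, rose in KO by 0.31 (SE 0.05, adjusted p = 1.65e-05). Of its 100-base exon windows, 14.2% also occur in Zmynd15, which overlaps it on the opposite strand, so its count is uncertain.

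Cxcl10, an interferon-induced ligand of Cxcr3, had 12.97 and 11.04 CPM in KO, against 15.6 and 16.0 CPM in WT, with an adjusted p of 0.0331 and a log2 fold change of -0.40 (SE 0.14). This call did not hold without KO replicate 2 (adjusted p = 0.219), without WT replicate 1 (0.0584) or without WT replicate 2 (0.106). Cxcl9, a related Cxcr3 ligand, was too low to test, with 1 and 4 counts in KO, against 1 and 0 in WT. Cx3cl1, the membrane-bound fractalkine, had 6.22 and 7.30 CPM in KO, against 8.51 and 5.86 CPM in WT, with overlapping genotypes and a log2 difference of -0.08 (95% interval -0.51 to 0.34).

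The CC chemokines fell more often than they rose. Ccl2 and Ccl7 recruit monocytes through Ccr2 and were the most abundant of the 50 genes per kilobase, Ccl2 with 2693 CPM per kb in KO and 3093 CPM per kb in WT. Ccl2 had 3109 and 3020.0 CPM in KO, against 3528 and 3512 CPM in WT, and fell by 0.20 on the log2 scale (SE 0.02, adjusted p = 1.28e-08). Ccl7 had 2022 and 1995 CPM in KO, against 2126 and 2084 CPM in WT, with an adjusted p of 0.0236 and a log2 fold change of -0.07 (SE 0.02). As a ratio from the fitted log2 fold change, Ccl7 in KO was at 0.954 of WT, one of the smallest calls of the 31. It lost its call without KO replicate 2 (adjusted p = 0.172), without WT replicate 1 (0.120) and with library sizes left unscaled (0.0952).

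Ccl8 and Ccl20 fell further. Ccl8, which neighbours Ccl2 and Ccl7 and also attracts monocytes and other leukocytes, had 38.6 and 37.6 CPM in KO, against 56.1 and 53.1 CPM in WT (log2 fold change -0.52, SE 0.08, adjusted p = 6.92e-06). Ccl20, the only known chemokine ligand of Ccr6, had 14.7 and 15.2 CPM in KO, against 28.2 and 29.3 CPM in WT (log2 fold change -0.94, SE 0.12, adjusted p = 2.60e-07). Every KO library of both genes was below every WT library. Ccl11, or eotaxin, in the same chromosome 11 stretch as Ccl8, had 2.54 and 3.56 CPM in KO, against 4.56 and 3.10 CPM in WT, and the genotypes overlapped (log2 difference -0.32, 95% interval -0.93 to 0.29).

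Ccl5, a chemokine that attracts T cells and monocytes, was the 1 CC chemokine of the list that rose, with 22.0 and 22.4 CPM in KO, against 16.8 and 16.0 CPM in WT. Its log2 fold change was 0.43 (SE 0.12, adjusted p = 0.00628, and 0.114 in DESeq2's Wald test). Ccl9, in the same 139 kb stretch of chromosome 11, had 5.26 and 6.11 CPM in KO, against 7.32 and 6.53 CPM in WT, a log2 difference of -0.28 (95% interval -0.71 to 0.14). Ccl6, a chemokine of myeloid cells that lies beside Ccl9 and is not among the 50 genes, had 17.6 and 18.7 CPM in KO, against 3.96 and 3.87 CPM in WT, and rose by 2.21 (SE 0.18, adjusted p = 7.27e-11). The macrophage and leukocyte sum of 191 and 196 CPM in KO, against 115 and 107 CPM in WT, moved in the same direction as Ccl5 and Ccl6, and its part in them was not tested.

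**Figure D3:**
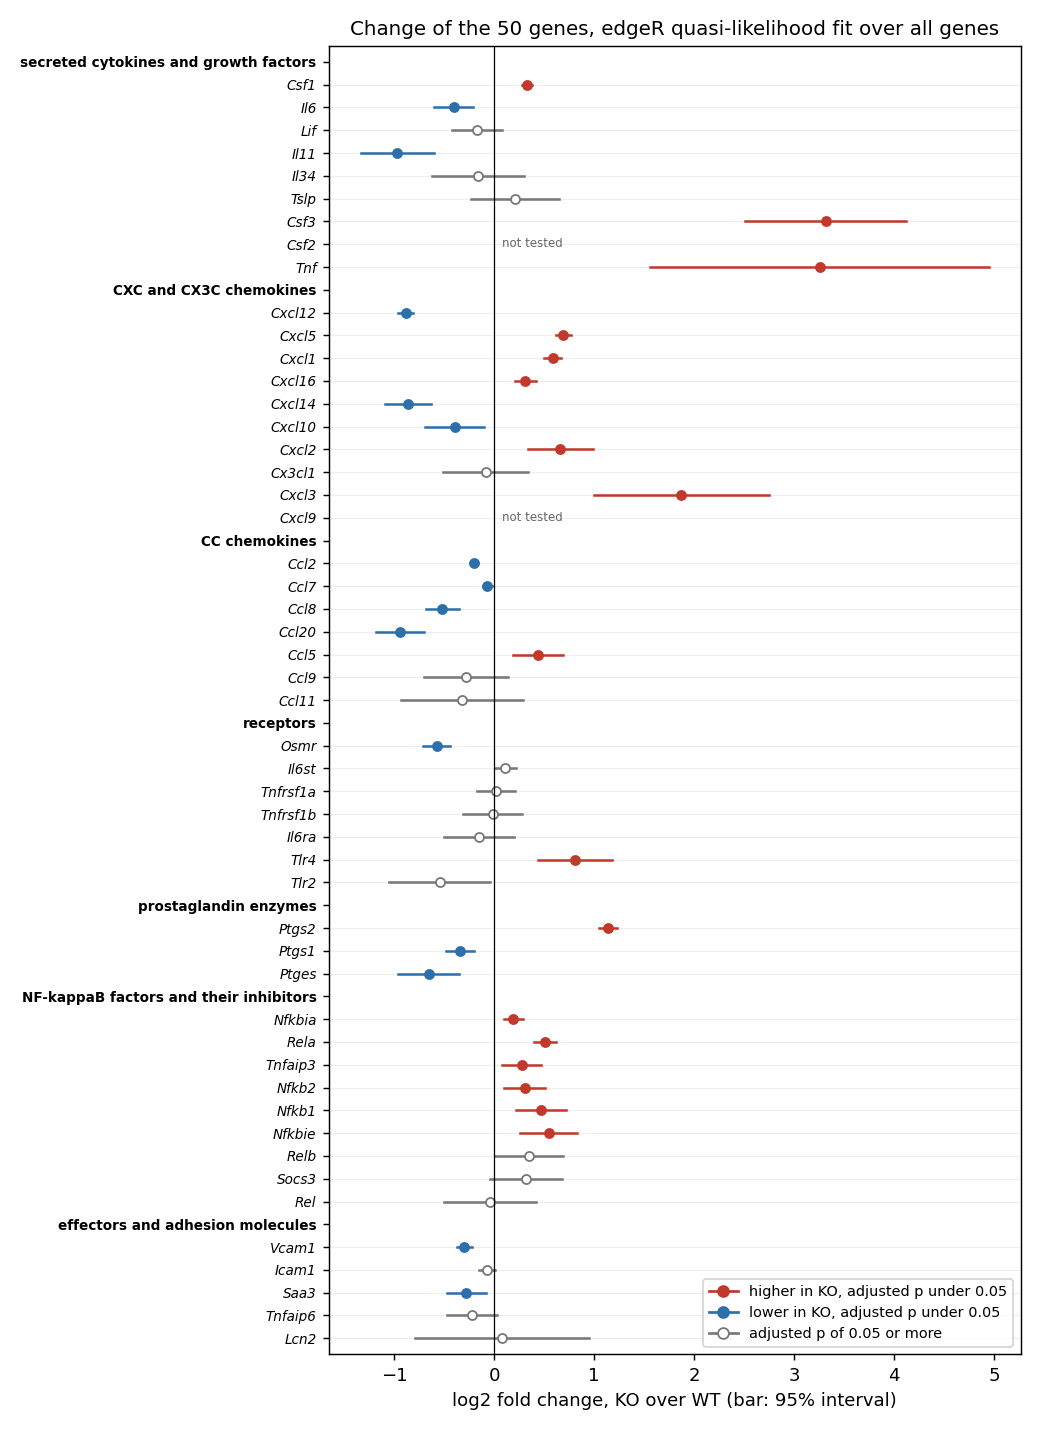
Log2 fold change of KO over WT with its 95% interval for the 48 tested genes, ordered by role, from edgeR's quasi-likelihood fit over all genes. Red points were higher and blue points lower in KO at an adjusted p under 0.05, and open points had no call; Csf3 and Tnf stand furthest to the right, at 3.32 and 3.25, and Il11 furthest to the left, at -0.97.

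Of 7 receptors, 1 rose and 1 fell, a share of 28.6% beside 35.7% of all tested genes. Osmr, the oncostatin M receptor subunit that pairs with gp130, had 115 and 140 CPM in KO, against 178 and 201 CPM in WT, and fell by 0.58 on the log2 scale (SE 0.06, adjusted p = 5.58e-08). Tlr4, the receptor of bacterial lipopolysaccharide, had 12.4 and 12.5 CPM in KO, against 5.64 and 8.52 CPM in WT, and rose by 0.81 (SE 0.18, adjusted p = 0.000815). Cd14, its co-receptor and also one of the macrophage markers, had 18.5 and 17.3 CPM in KO, against 10.1 and 10.8 CPM in WT, a log2 fold change of 0.78 (SE 0.14). The Tlr4 values of KO lay above both WT values, which differed from each other more than those of KO did.

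Il6st, which encodes gp130, had 149.6 and 153 CPM in KO, against 135 and 145 CPM in WT. Its adjusted p was 0.0916 and its log2 difference 0.11 (95% interval 0.01 to 0.21), and it passed without WT replicate 2 (adjusted p = 0.0467) and with library sizes left unscaled (0.0447). Tlr2, the receptor of bacterial lipoproteins, had 3.51 and 4.38 CPM in KO, against 4.92 and 6.53 CPM in WT, with an adjusted p of 0.0870 (log2 difference -0.54), and passed without WT replicate 1 (-0.73, adjusted p = 0.0427). The TNF receptors differed little, with log2 differences of 0.02 (95% interval -0.17 to 0.20) for Tnfrsf1a and -0.02 (interval -0.31 to 0.28) for Tnfrsf1b. Tnfrsf1a was the most abundant receptor per kilobase in the mean of each genotype, at 16.5 CPM per kb in KO and 16.3 CPM per kb in WT. In WT replicate 2, Osmr was above it, at 16.6 against 14.5 CPM per kb. The libraries of Tnfrsf1a held 42.4 and 42.9 CPM in KO, against 47.0 and 37.5 CPM in WT, the KO values lying between those of WT. Il6ra, the interleukin 6 receptor, had a log2 difference of -0.15 (interval -0.51 to 0.20).

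Of the NF-κB subunits, Rela, Nfkb1 and Nfkb2 rose in KO. Rela encodes the transactivating subunit of the classical dimer and lies on chr19:5637483-5648130. Rela had 119 and 117 CPM in KO, against 84.1 and 81.6 CPM in WT (log2 fold change 0.51, SE 0.05, adjusted p = 2.33e-08). Nfkb1, the precursor of p50, had 25.6 and 23.4 CPM in KO, against 16.3 and 19.0 CPM in WT (log2 fold change 0.47, SE 0.12, adjusted p = 0.00331). Both KO libraries exceeded both WT libraries for Rela and for Nfkb1. Nfkb1 was not called by DESeq2's Wald test (adjusted p = 0.0744). Nfkb2, the precursor of p52, had 30.8 and 28.8 CPM in KO, against 24.2 and 24.1 CPM in WT, with an adjusted p of 0.0203 and a log2 fold change of 0.30 (SE 0.10). Its call was lost without KO replicate 1 (adjusted p = 0.153), without WT replicate 1 (0.0549) and without WT replicate 2 (0.0680), and 12.3% of its 100-base exon windows also occur in genes on the opposite strand.

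Relb and Rel, the remaining subunits, were not called. Relb had 10.3 and 12.7 CPM in KO, against 8.87 and 9.07 CPM in WT, a log2 difference of 0.35 (95% interval 0.01 to 0.69, adjusted p = 0.101), and passed without KO replicate 1 (0.49, adjusted p = 0.0475). Rel, the gene of c-Rel, had overlapping genotypes and a log2 difference of -0.04 (interval -0.50 to 0.41).

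Of the inhibitors, Nfkbia, Nfkbie and Tnfaip3 rose. Nfkbia, which encodes IκBα, was the most abundant of the class per kilobase at 113 CPM per kb in KO and 99.1 CPM per kb in WT. Nfkbia had 180 and 185 CPM in KO, against 158 and 161 CPM in WT (log2 fold change 0.19, SE 0.05, adjusted p = 0.00200). Nfkbie, which encodes IκBε, had 16.9998 and 18.3 CPM in KO, against 12.5 and 11.7 CPM in WT (log2 fold change 0.55, SE 0.14, adjusted p = 0.00301). Nfkbie was not called by DESeq2's Wald test (adjusted p = 0.0739). Tnfaip3, which encodes the deubiquitinase A20 that ends NF-κB signalling, had 31.9 and 34.6 CPM in KO, against 27.5 and 27.4 CPM in WT, with an adjusted p of 0.0257 and a log2 fold change of 0.28 (SE 0.10). Without KO replicate 2, WT replicate 1 or WT replicate 2 the adjusted p of Tnfaip3 was 0.192, 0.0686 and 0.0788. Socs3, an inhibitor of gp130 signalling that was counted in this class, had overlapping genotypes and a log2 difference of 0.32 (interval -0.04 to 0.68).

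Ptgs2, which encodes the inducible cyclooxygenase COX-2 at the entry to prostaglandin synthesis, had the smallest p of the 48 genes. Ptgs2 lies on chr1:150100031-150108227 and had 779 and 851 CPM in KO, against 349 and 390 CPM in WT. The fitted ratio of KO over WT was 2.20 and the log2 fold change 1.14 (SE 0.04, 95% interval 1.05 to 1.23, adjusted p = 4.29e-18). The other enzymes among the 50 genes, Ptgs1 and Ptges, fell. Ptgs1, the constitutive cyclooxygenase, had 57.0 and 54.9 CPM in KO, against 70.2 and 71.8 CPM in WT (log2 fold change -0.34, SE 0.07, adjusted p = 0.000203). Ptges, the inducible synthase that turns the cyclooxygenase product into prostaglandin E2, had 9.90 and 9.31 CPM in KO, against 14.9 and 15.4 CPM in WT (log2 fold change -0.65, SE 0.15, adjusted p = 0.00110). In KO the levels per kilobase were 178 CPM per kb for Ptgs2 and 14.4 CPM per kb for Ptgs1, and in WT they were 80.7 and 18.3 CPM per kb.

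Among the adhesion molecules and effectors, Vcam1 and Saa3 fell and none rose. Vcam1, which binds integrins of monocytes and lymphocytes, had 387 and 403 CPM in KO, against 476 and 496 CPM in WT, and fell by 0.30 on the log2 scale (SE 0.04, adjusted p = 2.57e-07). The endothelial marker sum, of a cell type that also carries Vcam1, was higher in KO, at 222 and 237 CPM, against 177 and 176 CPM in WT. Icam1, which binds integrins of leukocytes, was the most abundant of this class per kilobase, and had 255.8 and 259.6 CPM in KO, against 270.4 and 270.9 CPM in WT. Its log2 difference was -0.07 (95% interval -0.16 to 0.01, adjusted p = 0.186), and 9.67% of its exon windows also occur in a gene on the opposite strand.

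Saa3, an acute-phase serum amyloid protein, had 27.7 and 27.2 CPM in KO, against 34.5 and 32.1 CPM in WT, with an adjusted p of 0.0240 and a log2 fold change of -0.28 (SE 0.10). Its adjusted p was 0.0664, 0.101 and 0.148 without KO replicate 1, KO replicate 2 and WT replicate 1. Tnfaip6, a hyaluronan-binding protein induced by TNF, had a log2 difference of -0.22 (95% interval -0.47 to 0.03). Lcn2, an iron-binding protein of innate immunity, was near 1.6 to 1.7 CPM in the mean of either genotype, with a log2 difference of 0.08 (interval -0.79 to 0.95).

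Other genes of the NF-κB pathway were listed by function. Of 37 tested kinases, adaptors and regulators, 4 rose and 4 fell, a share of 21.6% beside 35.7% of all tested genes. Nfkbib, which encodes IκBβ, had 83.0 and 83.9 CPM in KO, against 59.6 and 58.6 CPM in WT (log2 fold change 0.50, SE 0.06), and Nfkbiz, an atypical nuclear IκB, rose by 0.41 (SE 0.08). Irak2, a kinase of Toll-like and interleukin 1 receptors, rose by 0.34 (SE 0.07). Ikbkb, the catalytic kinase that marks IκB for destruction, had 31.8 and 32.8 CPM in KO, against 41.4 and 39.4 CPM in WT. It fell by 0.32 (SE 0.09), and DESeq2's Wald test did not call it (adjusted p = 0.0929). Of the other IκB family genes in this list, Bcl3 fell by 0.45 (SE 0.17, adjusted p = 0.0388) and Nfkbid had no call, and of the other IκB kinase genes Chuk, Ikbkg and Ikbke had no call.

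Of 25 tested further genes known as NF-κB targets, 8 rose and 5 fell, a share of 52% beside 35.7% of all tested genes. Ier3, a stress-induced survival gene, had 282 and 282 CPM in KO, against 192 and 175 CPM in WT (log2 fold change 0.62, SE 0.05), and Bcl2l1, an inhibitor of apoptosis, rose by 0.28 (SE 0.03). Mmp3, or stromelysin 1, which degrades matrix, had 1344 and 1359 CPM in KO, against 2543 and 2575 CPM in WT, and fell by 0.92 (SE 0.02). Steap4, a metalloreductase, fell by 1.15 (SE 0.15). These targets thus moved both ways.

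In the gp130 and JAK-STAT list, 8 of 26 tested genes rose and 5 fell, a share of 50% beside 35.7% of all tested genes. Stat6, the factor of interleukin 4 signalling, rose by 0.42 (SE 0.07). Jak1, the kinase bound to gp130, had 189 and 201 CPM in KO, against 239 and 251 CPM in WT, and fell by 0.33 (SE 0.05), and Stat3, the main factor downstream of gp130, fell by 0.27 (SE 0.04).

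Other chemokines and receptors were mostly too low to test, with 8 of 20 further chemokines and 4 of 23 chemokine receptors passing the filter. Ccl6, Ppbp, Pf4 and Ccl17 rose and no further chemokine fell, a share of 50% beside 35.7% of all tested genes. DESeq2's Wald test did not call Ccl17 (adjusted p = 0.216). Ccl17, a ligand of Ccr4, rose by 0.34 (SE 0.11), but not without KO replicate 2 (adjusted p = 0.169), WT replicate 1 (0.0597) or WT replicate 2 (0.0605). The 1 receptor with a call was Ackr3, a scavenger that takes up Cxcl12, with 2.98 and 2.56 CPM in KO, against 8.63 and 6.86 CPM in WT, a log2 fold change of -1.47 (SE 0.24). Ackr3 and its ligand Cxcl12 were thus both lower in KO.

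Of 18 tested further genes of prostaglandin and leukotriene metabolism, 6 rose and 1 fell, a share of 38.9% beside 35.7% of all tested genes. Alox5, the entry enzyme of leukotriene synthesis, had 7.62 and 8.76 CPM in KO, against 2.40 and 3.32 CPM in WT (log2 fold change 1.51, SE 0.24). Pla2g4a, the phospholipase that frees arachidonic acid for the cyclooxygenases, rose by 0.25 (SE 0.05), and Slco2a1, a prostaglandin transporter, by 0.46 (SE 0.09). Alox12, a lipoxygenase known from platelets, rose by 0.92 (SE 0.29), with an adjusted p of 0.132 without KO replicate 2 and 0.126 without WT replicate 1. DESeq2's Wald test did not call Alox12 (adjusted p = 0.165). Alox5 is also a gene of myeloid cells, and the macrophage and leukocyte sum was higher in KO.

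Of 14 tested genes of the TNF and Toll-like receptor families, 5 rose and 2 fell, a share of 50% beside 35.7% of all tested genes. Tnfsf15, a TNF family cytokine known from endothelium, had 10.3 and 10.0 CPM in KO, against 3.72 and 3.21 CPM in WT (log2 fold change 1.56, SE 0.21). Tnfrsf12a, the receptor of TWEAK, was abundant and rose by 0.23 (SE 0.04), and Ltbr, the lymphotoxin β receptor, rose by 0.47 (SE 0.10). Endothelial markers were higher in KO as well, with 9 of 12 called higher and 1 lower. Of the 9, Tie1 and Vwf passed the filter on low counts through their KO libraries alone, which fixed their direction.

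**Figure D4:**
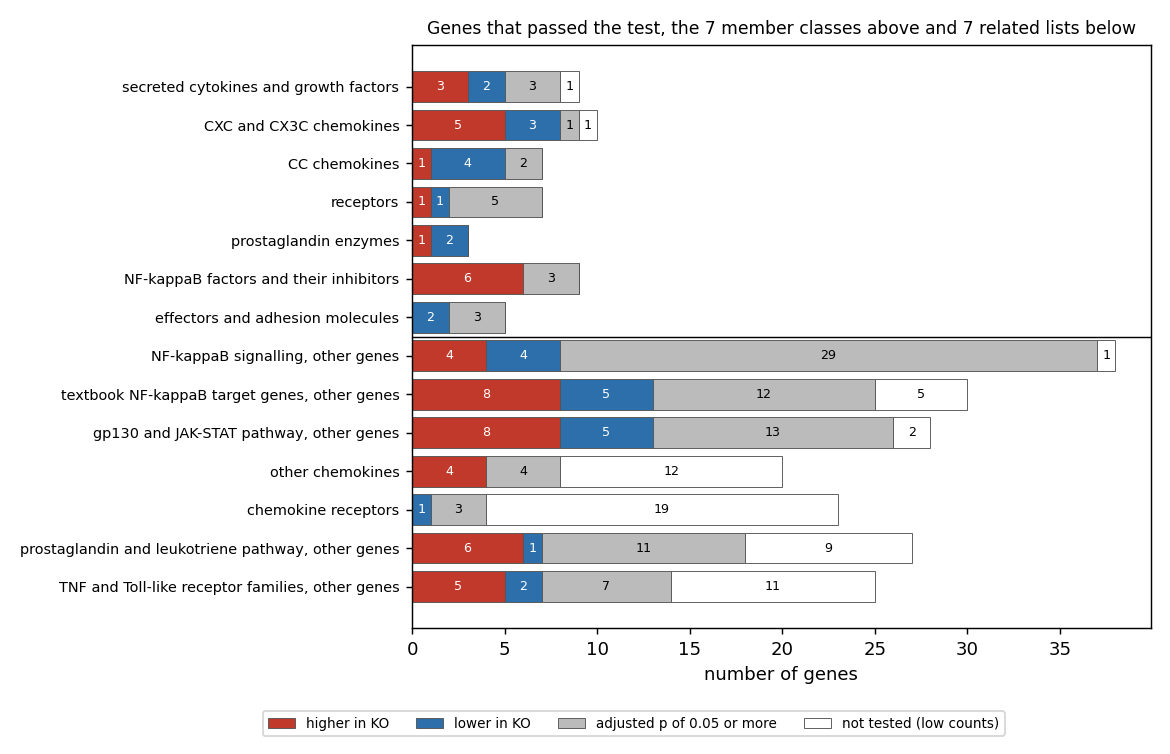
Number of genes higher in KO (red), lower in KO (blue), without a call (grey) and not tested (white), for the 7 roles among the 50 genes above the line and the 7 lists of related genes below it. The NF-κB factors and their inhibitors have 6 red and no blue genes of 9 tested, and the CC chemokines 1 red and 4 blue of 7. Of all tested genes, 18.3% were higher and 17.4% lower in KO. Calls are those of edgeR's quasi-likelihood test.

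Most of the 50 genes had a start-site peak of open chromatin in both ATAC-seq libraries. ATAC-seq marks accessible DNA by transposase insertion, and the peaks are those the authors called with MACS2, 121748 in KO and 123935 in WT. With 1 library a genotype there is no replicate check, and fold enrichments belong to their own list and are not compared between lists. A peak within 1000 bases of the gene start was present for 43 of the 50 genes in KO and for 43 in WT, and for 41 in both. Among all tested genes the share with a peak was 93.6% in KO, 93.6% in WT and 92.8% in both. The shares of the 50 genes were 86%, 86% and 82%. The 50 genes include Csf2 and Cxcl9, which were not tested, while the background holds tested genes only.

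A peak was listed in KO only for Cxcl3 and Csf2, and in WT only for Il11 and Il34. Such differences were found in 0.779% (KO only) and 0.738% (WT only) of all tested genes. The Cxcl3 peak of KO, at chr5:90785614-90786680, had a fold enrichment of 5.53, at the 2.16 percentile of the strongest start-site peaks of all tested genes in KO, and covers the κB match shown above. The Il11 peak of WT had a fold enrichment of 4.52, at the 1.60 percentile of its list, with its summit at position -972 from the start. The peaks of Csf2 and Il34 were at the percentiles 1.66 and 0.64, so that each of the 4 was among the weakest of its list. Only Cxcl3 and Il11 of the 4 were also called in the RNA. Both WT-only peaks were no longer WT only with peaks of at least 5 in −log10 q-value, and neither was in a window of 2500 bases.

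Ccl5, Ccl11, Ccl20, Cxcl9 and Saa3 had no peak in either list, as did 5.65% of all tested genes. This was so although Ccl20 and Saa3 were expressed at 14.7 to 34.5 CPM across the libraries and Ccl5 at 16.0 to 22.4 CPM. Genes without a start-site peak thus included expressed ones. The strongest start-site peak was that of Il6ra, at 44.2-fold in KO (percentile 99.3) and 37.4-fold in WT (percentile 99.2), a gene of only 9.55 CPM in KO and 10.6 CPM in WT in the mean. The peaks of Nfkb2 followed, at 37.8-fold in the KO list and 32.5-fold in the WT list. Rela and Ptgs2, higher in the RNA of KO, had a peak in both lists, at 30.6-fold and 18.7-fold in the KO list and 23.0-fold and 16.0-fold in the WT list. Ccl2 and Cxcl12, lower in the RNA of KO, also had a peak in both lists. Their folds were 31.9 and 19.1 in the KO list, and 22.2 and 14.4 in the WT list. The median fold of all peaks was 6.38 in the KO list and 5.75 in the WT list. Ccl2, the most abundant gene, lay in one peak of 8871 bases in KO and 8899 bases in WT, whose summit lay upstream, at position -3036 in KO and -2957 in WT.

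**Figure D5:**
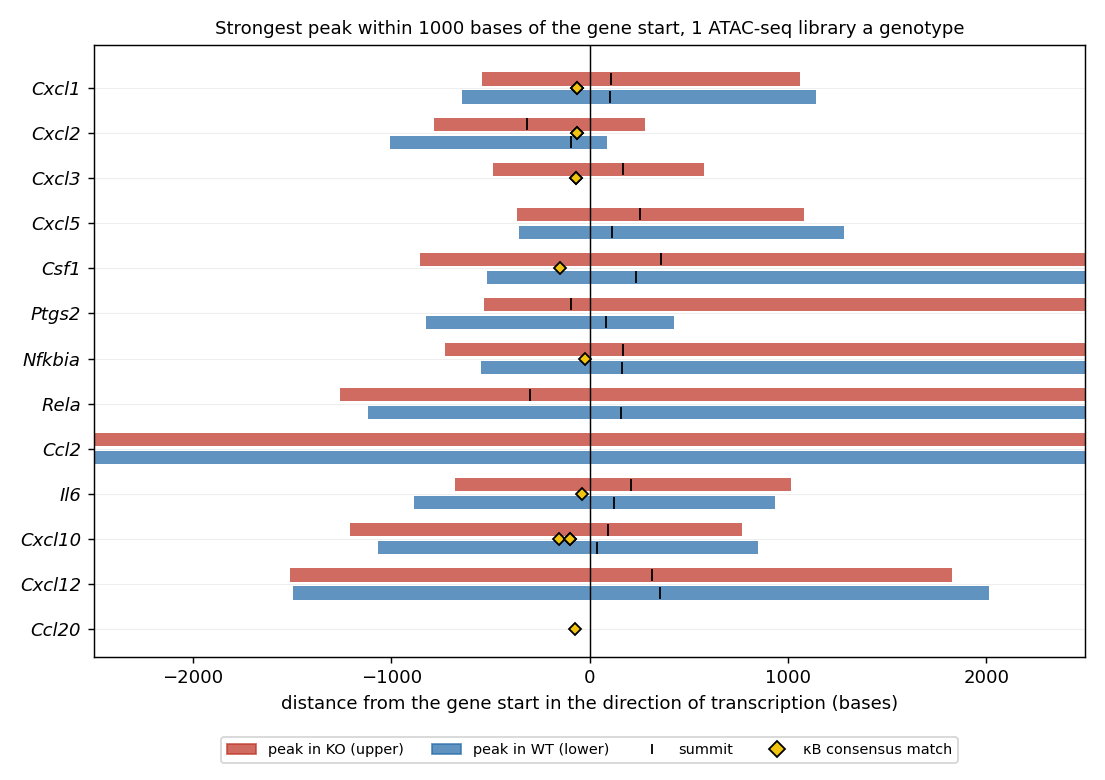
Extent of the strongest ATAC-seq peak near the start of 13 genes, in bases along the direction of transcription, for KO (red, upper bar) and WT (blue, lower bar), with the summit as a tick and κB consensus matches as diamonds. The peaks of both libraries cover the start in the genes drawn other than Cxcl3, which has a KO peak only, and Ccl20, which has none; bars that reach the edge go on beyond it.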

How the data were processed

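Samples were grouped by genotype and assay as their titles give them. Per the labels' protocols and the submitters' processing notes, paired reads of 150 bp were trimmed with Trim Galore 0.6, checked with FastQC and aligned to mm10, RNA with STAR 2.5.3a and ATAC-seq with Bowtie2 2.3, and MACS2 called peaks per sample. The authors deposited estimated counts per gene for RNA-seq, of which 10.8 to 12.2% are not whole, although the labels' protocols speak of TPM. Which program and annotation were used for counting is not given in the sources at hand. Such estimated counts split reads among genes of shared sequence, and the kit is not stated to keep strand, so genes that overlap on opposite strands cannot be separated. The deposited peak lists hold an integer score, a fold enrichment as a ratio over background, a −log10 p-value and a −log10 q-value per peak, by the column order of MACS2, which the labels name. The score was not used.

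The plan had assumed whole counts. The estimates were rounded, and edgeR 4.0.16 under R 4.3.3 was run on them (filterByExpr with a minimum count of 10, TMM, glmQLFit and glmQLFTest on genotype alone). P-values were adjusted by Benjamini-Hochberg over 12192 genes, at 0.05. SEs follow from the log2 fold change and the square root of F. The test was checked on simulated counts. CPM uses TMM-scaled library sizes, and CPM per kb the merged exon length of GENCODE M21, which holds 25712 of the 25746 gene identifiers, 25548 of them with the same coordinates. Start sites are GENCODE gene starts, coordinates are 1-based, and promoter windows are those of RefSeq on GRCm38.p6. Replicates differed by more than sampling noise (chi-square per degree of freedom 1.95 in KO and 1.76 in WT), and all were kept. The fitted common coefficient of variation between replicates (BCV) was 0.0311.

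The 50 genes and all lists were chosen with earlier results of these data known. Values per library are given for Acta2, for called genes with a log2 fold change of at least 0.5 in size, for the most abundant gene of each role and for genes whose call changes under an alternative. Of each related list, up to 4 called genes with the smallest p are named, apart from a gene that is not reported here. Genes named for their place in a chemokine cluster (neighbours at most 200 kb apart), and a few further values, were chosen after they were seen. Alternatives were other scalings, no filter, DESeq2 1.42.0, assumed BCVs of 0.1 and 0.2, a replicate block, leaving out each replicate, and other peak windows and thresholds.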

Additional observations from a re-analysis of the deposited data

How the results depend on the processing

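None of the 31 called genes changed direction in any of the 11 alternatives to the RNA-seq test, and 21 kept their call in each alternative other than the assumed BCVs. With DESeq2, 2058 genes were called in all, and 21 of the 50, of which 10 were higher and 11 lower. An assumed BCV of 0.1 left 1780 genes in all and 17 of the 50 (10 higher, 7 lower), and a BCV of 0.2 left 398 in all and 4 of the 50 (4 higher, 0 lower), namely Csf3, Tnf, Cxcl3 and Ptgs2. Of these, Csf3, Tnf and Cxcl3 passed the filter on low counts through their KO libraries alone, which fixed their direction. Csf3, Cxcl3 and Ptgs2 were called in all 11, and the other 28 were not. The fitted BCV of 0.0311 is low, and calls of small changes rest on it. Leaving out 1 library at a time gave 27 to 30 of the 50 (15 to 17 higher, 11 to 14 lower) and 3392 to 3674 genes in all, where a group left with 1 library is assumed to vary like the other. Same-numbered libraries did not deviate together across genes (correlation 0.0004). With only 2 libraries a genotype, this cannot settle whether the numbers pair them. A replicate block called 31 of the 50 and 4408 genes in all. Among genes without a call, 7 changed sign on leaving out a library, with log2 differences from -0.34 to 0.0034 for Lif, -0.34 to 0.20 for Cx3cl1, -0.32 to 0.28 for Rel, -0.38 to 0.50 for Lcn2, -0.39 to 0.055 for Il6ra, -0.14 to 0.18 for Tnfrsf1a and -0.094 to 0.058 for Tnfrsf1b, which was at 0.0052 with library sizes unscaled. WT-only start-site peaks numbered 0 with windows of 2500 bases, 0 with −log10 q-values of at least 5 and 1 with an overlap of at least 200 bases. The cause of these shifts was not tested.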
